A study of Mus musculus with 22 samples.

Results

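Expression of 10 genes of the NF-kB pathway was followed in dermal fibroblasts of operated mice, taken by cell sorting from back skin with or without an expander hydrogel beneath it. They were chosen by symbol. Nfkb1, Nfkb2 and Relb are subunit genes, and Icam1 and Vcam1 are adhesion genes. The others are the IkB-related genes Nfkbia, Nfkbiz and Bcl3 and the ubiquitin-enzyme genes Tnfaip3 and Birc3. All 10 were found in the count table of 55414 genes, and all 10 were among the 17554 genes that passed the filter on low counts and were tested. Every mouse was operated on through an incision near the tail. EXP mice received an expander hydrogel near the neck, and CTRL mice had the same operation with no expander. The 22 libraries fall into 6 groups: day 1 has 4 CTRL and 5 EXP libraries, day 2 has 3 of each arm, and day 4 has 4 CTRL and 3 EXP libraries. The cells had been sorted as alive, positive for CD34 and PDGFRα, and negative for CD31, CD45, CD117 and EpCAM, so the values describe only dermal cells inside that gate. Strain, age and sex are not given in the sources used here. The labels number the samples of a group without saying that each came from a separate mouse, so the p-values measure the spread between these samples.

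NF-kB is a family of dimeric transcription factors that wait in the cytoplasm bound to inhibitors of the IkB group. Ligands such as tumour necrosis factor and interleukin-1 activate IkB kinases, the inhibitor is degraded, and the dimer moves to the nucleus and binds kappa B sites. In the canonical branch the p50 product of Nfkb1 pairs with RelA, and in the alternative branch the p52 product of Nfkb2 pairs with RelB. Many of the genes switched on encode parts of the circuit itself, such as IkBα (Nfkbia) and the ubiquitin-editing enzyme A20 (Tnfaip3), which damp the signal. In stromal cells of the skin the pathway is known for inducing chemokines and the adhesion molecules ICAM1 and VCAM1, to which leukocyte integrins bind.

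The start-site sequences of the genes are shown because several of the 10 are known to be targets of the pathway they regulate. The RefSeq table of promoters (mouse build GRCm38.p6, 250 bases before to 50 after each start) held a window for 6 of the 10: Nfkb2, Nfkbia, Tnfaip3, Bcl3, Birc3 and Icam1. The 10-letter kappa B consensus, searched on both strands with overlapping matches allowed, occurred in a window of 4 of these 6 genes. It occurred in 8.46% of all 32851 windows of that length and in a window of 9.55% of the 27025 genes in the table. A match is a stretch of letters and not a measured binding site. Capitals mark the letters that match on either strand. The first 3 sequences and the last are the 100 bases before the start, and the Bcl3 sequence is 30 bases around its match, just after the start.
Nfkb2 (chr19:46304637-46304736, plus strand): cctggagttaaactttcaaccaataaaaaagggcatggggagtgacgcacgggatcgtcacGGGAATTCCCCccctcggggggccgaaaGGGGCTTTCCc
Nfkbia (chr12:55492648-55492747, minus strand): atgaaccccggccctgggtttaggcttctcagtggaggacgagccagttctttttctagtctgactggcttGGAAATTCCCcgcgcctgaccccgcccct
Tnfaip3 (chr10:19015411-19015510, minus strand): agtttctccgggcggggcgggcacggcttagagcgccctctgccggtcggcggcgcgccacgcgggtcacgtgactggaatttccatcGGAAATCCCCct
Bcl3 (chr7:19822734-19822763, minus strand): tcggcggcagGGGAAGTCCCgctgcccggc
Icam1 (chr9:21015840-21015939, plus strand): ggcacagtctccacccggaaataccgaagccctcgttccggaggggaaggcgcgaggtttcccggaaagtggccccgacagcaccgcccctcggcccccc
Nfkb2 held the consensus in each of its 3 start windows, and Tnfaip3 in 1 of its 2. The Nfkb2 windows not shown overlap each other and share a match, and neither overlaps the window shown. The Nfkb2 window shown holds 2 separate stretches, of which the first contains overlapping matches on both strands. Icam1 and Birc3 had no match in their windows, which says only that these letters are not in those bases.

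Library totals ran from 21461294 to 30210204 counts. The fibroblast genes Pdgfra and Cd34 were at or above 225 and 215 CPM (counts scaled for library size, with TMM factors that align the bulk of genes between libraries) in every library. Their levels differed between the arms. Cd34 was 1279 to 1555 CPM in CTRL and 267 to 755 CPM in EXP on day 1, and 1660 to 2077 CPM and 215 to 671 CPM on day 2. Pdgfra was 320 to 416 CPM in CTRL and 451 to 709 CPM in EXP on day 1, and 225 to 257 CPM and 468 to 1018 CPM on day 2. On day 4 the arms overlapped for both genes. The sort's excluded markers were low: Pecam1, which encodes CD31, reached at most 3.73 CPM, Ptprc (CD45) 0.246 CPM, Kit (CD117) 0.687 CPM and Epcam 2.07 CPM. Apart from the groups, 191 genes that moved with Rnf10 set 7 libraries apart from the other 15, with a gap of 0.64 in their mean log2 CPM. The high side held CTRL replicates 1, 2 and 3 and EXP replicates 1 and 2 of day 1 and CTRL replicates 3 and 4 of day 4, and none of the 10 genes was among the 191. What the split stems from is not given in the labels, and results that move with it are given with and without it.

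Per kilobase of merged exon, Nfkbia was the most abundant of the 10, with a mean of 939 CPM per kilobase over all libraries. Icam1 followed with 162, Nfkbiz with 105, Tnfaip3 with 82.4, Birc3 with 62.7 and Vcam1 with 48.5 CPM per kilobase. The subunit genes lay lower, at 33.6 for Nfkb2, 19.9 for Relb and 10.8 for Nfkb1, and Bcl3 at 12.1 CPM per kilobase. The mRNA of the inhibitor IkBα was thus far above that of each subunit gene listed, on the per-length scale. Exon lengths came from GENCODE M21. In that annotation exons of Nfkb2, Bcl3, Icam1 and Vcam1 overlap exons of genes on the opposite strand, and whether counting used strand is not given in the sources used here, so the counts of these 4 genes are uncertain to that extent.

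Different genes of the 10 were called on different days, and Nfkb2 and Icam1 were called in both directions. On day 1 Nfkb1, Nfkb2 and Icam1 were higher in EXP and 0 of the 10 were lower (edgeR's quasi-likelihood F-test, adjusted p under 0.05), where 13.6% of all genes tested were called higher and 14.9% lower. On day 2 only Nfkbia was called, lower in EXP, where 5.62% of all genes were called lower and 7.85% higher. On day 4, 7 of the 10 were lower in EXP (Nfkb2, Relb, Nfkbia, Tnfaip3, Birc3, Bcl3 and Icam1) and 0 were higher, where 8.96% of all genes were called lower and 13.6% higher. At an unadjusted p under 0.05, 4 were higher and 1 lower on day 1, 0 higher and 2 lower on day 2, and 0 higher and 7 lower on day 4. The median log2 fold change of the 10, EXP over CTRL, was 0.15 on day 1, -0.08 on day 2 and -0.80 on day 4, beside 0.01, 0.03 and 0.06 over all genes. Scaling to library totals without TMM raised the median of all genes by 0.20, 0.46 and 0.31 on the 3 days. With TMM 3, 7 and 10 of the 10 genes had a log2 fold change below 0 on days 1, 2 and 4, and on library totals 2, 3 and 7. Under either scaling 3, 7 and 10 lay below the median of all genes. A change of scaling moves all genes of a day by nearly the same amount, so these equal counts are no check of the scaling. The count of 7 genes called lower on day 4 rested on thin groups: it was 4 without CTRL replicate 2, 1 without EXP replicate 1 and 3 without EXP replicate 2. On the split's low side alone, with 2 CTRL and 3 EXP libraries, it was 0. In those libraries Nfkb2 (log2 fold change -0.72), Nfkbia (-0.81), Tnfaip3 (-1.07), Birc3 (-1.18) and Icam1 (-1.27) differed by at least as much as over all libraries, while Relb (-0.61) and Bcl3 (-1.19) differed by less. The count of 3 genes called higher on day 1 became 1 without CTRL replicate 4.

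**Figure D1:**
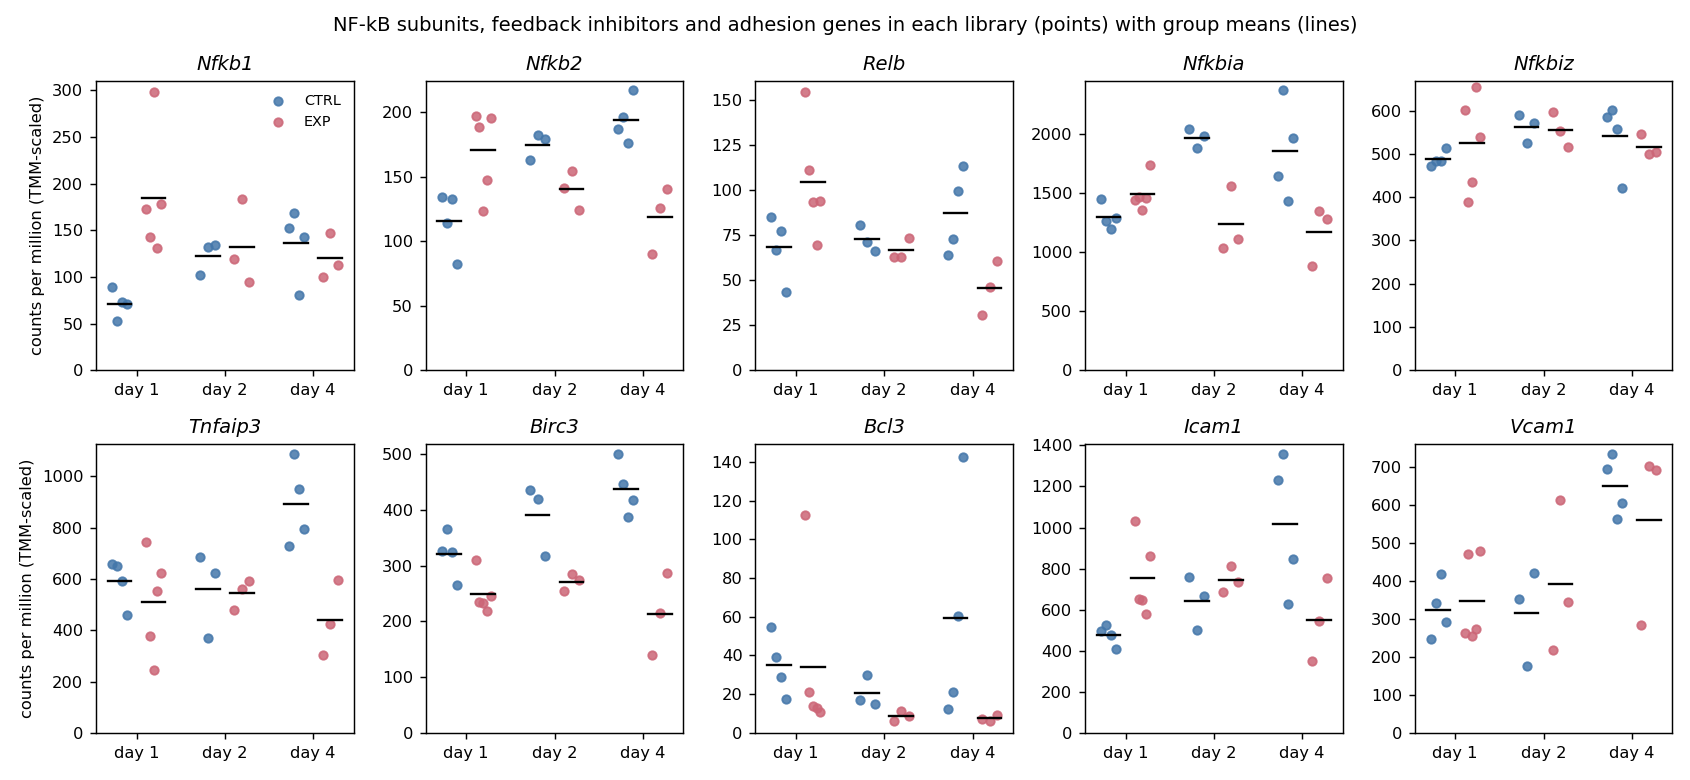
TMM-scaled CPM of the 10 genes in each of the 22 libraries, by day, with CTRL libraries in blue and EXP libraries in red. Each panel has its own linear axis from 0, points are libraries and lines are group means. All 5 EXP libraries of day 1 lie above all 4 CTRL libraries for Nfkb1 and Icam1, and the 3 EXP libraries of day 4 lie below all 4 CTRL libraries for Nfkb2, Relb, Nfkbia, Tnfaip3, Birc3 and Bcl3.

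Among the subunits, Nfkb1 showed the largest log2 fold change of the 10 genes on day 1. Its precursor protein p105 acts as an inhibitor and is processed to the p50 subunit. The CTRL libraries of day 1 held 89.1, 52.3, 73.4 and 71.1 CPM of Nfkb1, and the EXP libraries 173, 143, 298, 131 and 178 CPM. Every EXP library was above every CTRL library, and EXP replicate 3 stood far above the other 4. Of all genes, 11.4% had every EXP library above every CTRL library on day 1. CTRL averaged 71.5 ± 15.1 CPM (SD, n = 4) and EXP 184.5 ± 66.2 CPM (SD, n = 5), and the log2 fold change was 1.37 (SE 0.26, adjusted p = 5.71e-04, edgeR). This call held without any single library in turn, and on the high side of the split alone (3 CTRL against 2 EXP libraries, log2 fold change 1.16, adjusted p = 0.0214). Later the arms overlapped. On day 2 the CTRL libraries held 102, 132 and 134 CPM of Nfkb1 and the EXP libraries 119, 183 and 94.1 CPM (log2 fold change 0.11, SE 0.30, adjusted p = 0.858). On day 4 the CTRL libraries held 152, 168, 80.3 and 143 CPM and the EXP libraries 100.2, 147 and 113 CPM (log2 fold change -0.18, SE 0.29, adjusted p = 0.696). The CTRL libraries of day 1 were the lowest group for Nfkb1, and the other 4 groups lay between the 2 arms of day 1 in their means.

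Nfkb2, whose p100 precursor both inhibits dimers and gives rise to p52, was higher in EXP on day 1 and lower on day 4. The CTRL libraries of day 1 held 134, 114, 133 and 82.4 CPM and the EXP libraries 197, 188, 123.7, 147 and 196 CPM. EXP replicate 3 lay within the CTRL range and the other 4 above it. The log2 fold change was 0.56 (SE 0.17, adjusted p = 0.0185, edgeR), and the call was lost without CTRL replicate 4, the lowest library (log2 fold change 0.42, adjusted p = 0.0739), and within the split's high side, at 3 CTRL against 2 EXP (0.62, adjusted p = 0.0724). On day 2 the CTRL libraries held 162, 182 and 179 CPM and the EXP libraries 141, 155 and 124.4 CPM. All 3 EXP libraries were below all 3 CTRL libraries, as for 18.1% of all genes, but the difference did not pass the test (log2 fold change -0.32, SE 0.21, adjusted p = 0.333). On day 4 the CTRL libraries held 187, 196, 176 and 217 CPM and the EXP libraries 89.8, 126 and 141 CPM. The arms did not overlap, as for 10.8% of all genes in that direction, and Nfkb2 was 1.63-fold lower in EXP (log2 fold change -0.71, SE 0.20, adjusted p = 0.0143). That call was lost without EXP replicate 1 (log2 fold change -0.57, adjusted p = 0.0822) and on library totals without TMM (log2 fold change -0.44, adjusted p = 0.0742).

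Relb, the partner of p52 and a subunit whose gene is itself a target of the pathway, went from the upper to the lower end in the EXP arm. Its EXP libraries held 154, 111, 93.4, 69.4 and 94.1 CPM on day 1, 63.1, 63.2 and 73.6 CPM on day 2, and 30.7, 46.4 and 60.7 CPM on day 4. The 3 EXP libraries of day 4 were all below the lowest EXP library of either earlier day. The CTRL libraries held 85.1, 66.9, 77.3 and 43.3 CPM on day 1, 80.7, 71.4 and 66.1 CPM on day 2, and 64.1, 73.0, 99.7 and 113 CPM on day 4. On day 4 Relb was 1.91-fold lower in EXP with no overlap (log2 fold change -0.93, SE 0.27, adjusted p = 0.0195, edgeR). The call was lost without CTRL replicate 4 (adjusted p = 0.0606), EXP replicate 1 (0.105) or EXP replicate 2 (0.0633), and by limma voom (0.0504). On day 1 the log2 fold change was 0.62 (SE 0.24, adjusted p = 0.0558), which just missed the threshold. It passed without CTRL replicate 1 (adjusted p = 0.0445), EXP replicate 4 (0.0262), or EXP replicates 1 (0.0345) or 3 (0.0461) of day 4. It also passed on library totals (log2 fold change 0.80, adjusted p = 0.00888), on the high side of the split (0.81, adjusted p = 0.0431) and by DESeq2 (adjusted p = 0.0476). Of the 22 fits that left out 1 library, 4 passed, with log2 fold changes from 0.43 to 0.74 over all 22 (adjusted p up to 0.179). Limma voom (0.45, adjusted p = 0.0994), day 1 fitted alone (0.0795) and no filter on low counts (0.0655) did not pass. On day 2 the log2 fold change of Relb was -0.13 (SE 0.28, adjusted p = 0.816).

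Nfkbia encodes IkBα, the inhibitor that holds the canonical dimers in the cytoplasm. Its CTRL libraries of day 1 held 1450.2, 1269, 1196 and 1290 CPM and its EXP libraries 1445, 1467, 1358, 1456 and 1739 CPM. The arms overlapped, and the log2 fold change was 0.20 (SE 0.17, adjusted p = 0.401, edgeR). On day 2 the CTRL libraries held 2049, 1882 and 1984 CPM and the EXP libraries 1037, 1565 and 1116 CPM. All EXP libraries lay below all CTRL libraries, a 1.59-fold lower level (log2 fold change -0.67, SE 0.20, adjusted p = 0.0337). The day 2 call was lost without CTRL replicate 1 (adjusted p = 0.0944), 2 (0.0722) or 3 (0.0806) or EXP replicate 1 (0.164) or 3 (0.128), and on library totals without TMM (log2 fold change -0.22, adjusted p = 0.419). On day 4 the CTRL libraries held 1648, 2378, 1434 and 1972 CPM and the EXP libraries 886, 1349 and 1281 CPM. The level in EXP was again 1.59-fold lower with no overlap (log2 fold change -0.67, SE 0.19, adjusted p = 0.0190). That call was lost without CTRL replicate 2 (adjusted p = 0.0588) or EXP replicate 1 (0.101), and on library totals (log2 fold change -0.40, adjusted p = 0.0895).

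Tnfaip3 and Birc3 encode ubiquitin enzymes of the receptor complex: A20, which shuts signalling off, and cIAP2, a ligase that acts there and blocks cell death. Tnfaip3 held 729, 1085, 951 and 796 CPM in the CTRL libraries of day 4 and 304, 423 and 597 CPM in the EXP libraries. The arms did not overlap, and the level was 2.02-fold lower in EXP (log2 fold change -1.01, SE 0.31, adjusted p = 0.0227, edgeR). The call was lost without CTRL replicate 2 (adjusted p = 0.0530), EXP replicate 1 (0.111) or EXP replicate 2 (0.0795). Earlier, on day 1, the CTRL libraries held 660.1, 650.5, 593 and 460 CPM and the EXP libraries 744, 378, 247, 551 and 622 CPM, with EXP libraries on both sides of CTRL (log2 fold change -0.22, SE 0.26, adjusted p = 0.571). On day 2 the CTRL libraries held 685, 370.0 and 624 CPM and the EXP libraries 477, 561 and 592 CPM (log2 fold change -0.04, SE 0.32, adjusted p = 0.951).

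Birc3 gave the smallest adjusted p of the 10 genes on day 4. Its CTRL libraries held 501, 446, 388 and 417 CPM and its EXP libraries 140.3, 215 and 286 CPM. All EXP libraries were below all CTRL libraries, and the level was 2.05-fold lower in EXP (log2 fold change -1.03, SE 0.20, adjusted p = 0.00185, edgeR). The call held without any single library in turn. Within the split's low side, at 2 CTRL against 3 EXP, the log2 fold change was -1.18, with an adjusted p of 0.179. On day 2 the CTRL libraries held 437, 419 and 317 CPM and the EXP libraries 254, 285 and 274 CPM, again with no overlap, but the test was not passed (log2 fold change -0.53, SE 0.21, adjusted p = 0.101). It was passed without EXP replicate 1 of day 4 (adjusted p = 0.0435), when day 2 was fitted alone (0.0493) and by limma voom (0.0173). It was not passed by DESeq2 (adjusted p = 0.0629), with no filter on low counts (0.175) or with the replicate number as a block (0.184). On library totals without TMM the day 2 log2 fold change was -0.07 (adjusted p = 0.816). On day 1 the CTRL libraries held 326, 366, 325 and 265 CPM and the EXP libraries 311, 235, 233, 218 and 245 CPM (log2 fold change -0.37, SE 0.17, adjusted p = 0.114). The estimate for Birc3 was below 0 on each day, and its effect was not shown to differ between days (adjusted p = 0.206).

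Nfkbiz, which encodes the nuclear protein IkBζ that helps switch on secondary targets, was the steadiest of the 10 in CTRL on day 1 and showed no call on any day. Its CTRL libraries held 472, 484, 485 and 513 CPM on day 1, 589, 525 and 572 CPM on day 2, and 585, 602, 559 and 422 CPM on day 4. Its EXP libraries held 602, 388, 436, 655 and 540.1 CPM on day 1, 596, 553 and 516 CPM on day 2, and 545, 499 and 505 CPM on day 4. The arms overlapped on every day, with a log2 fold change on day 1 of 0.10 (SE 0.15, adjusted p = 0.640), of -0.02 the day after (SE 0.18, adjusted p = 0.964) and -0.07 at the last time point (SE 0.17, adjusted p = 0.802). These do not show that the arms were equal, but the estimates were the smallest in size of the 10 genes on days 2 and 4.

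Bcl3, a nuclear IkB-like protein that binds p50 and p52 dimers, had the widest relative spread of the 10 within both arms on day 1 and within CTRL on day 4, and moved with the library split. On day 4 the CTRL libraries held 12.3, 21.1, 60.6 and 143 CPM and the EXP libraries 7.06, 6.15 and 9.26 CPM. All EXP libraries were below all CTRL libraries, and the level was 7.90-fold lower (log2 fold change -2.98, SE 0.87, adjusted p = 0.0201, edgeR). CTRL replicates 3 and 4, the highest, are those on the high side of the split. Among the low-side libraries, 2 CTRL against 3 EXP, the log2 fold change was -1.19 (adjusted p = 0.177), and a fit with the split as covariate gave -1.40 (adjusted p = 0.0625). The call was also lost without CTRL replicate 4 (log2 fold change -2.07, adjusted p = 0.0782), EXP replicate 1 (adjusted p = 0.0853) or EXP replicate 2 (adjusted p = 0.0862), by limma voom (log2 fold change -2.10, adjusted p = 0.101) and with no filter on low counts (adjusted p = 0.0579). On day 1 the CTRL libraries held 54.8, 39.2, 29.0 and 17.3 CPM and the EXP libraries 113, 21.1, 13.9, 12.7 and 11.1 CPM (log2 fold change -0.03, SE 0.68, adjusted p = 0.980). EXP replicate 1, alone above the CTRL libraries, lies on the high side of the split. On day 2, where all 6 libraries are on the low side, the CTRL libraries held 17.2, 29.8 and 15.2 CPM and the EXP libraries 6.21, 11.2 and 8.62 CPM. The arms did not overlap on day 2, but the test was not passed (log2 fold change -1.26, SE 0.85, adjusted p = 0.355). When day 2 was fitted alone it was passed at nearly the same fold (-1.27, adjusted p = 0.0175). That was the only 1 of 8 alternatives to pass on day 2. Limma voom (adjusted p = 0.224), DESeq2 (0.322), library totals (log2 fold change -0.84, adjusted p = 0.497) and no filter (0.557) did not. Day 4 fitted alone did not pass for Bcl3 (adjusted p = 0.0621).

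After the group means were taken out, the log2 CPM of Bcl3 and of Relb correlated with the level that defines the split at 0.89 and 0.83 over the 22 libraries, given as a description. The other 8 genes gave values from -0.45 (Nfkbiz) to 0.38 (Nfkb2), with Icam1 at -0.07, Nfkbia at -0.04 and Vcam1 at -0.01. With the split as a covariate, 4 of the 7 genes called on day 4 passed (Nfkb2, Nfkbia, Birc3 and Icam1). Relb missed the threshold at a log2 fold change of -0.56 (adjusted p = 0.0644), against -0.93 without the covariate, and Bcl3 at -1.40, against -2.98. Tnfaip3 also missed it (adjusted p = 0.0545), but at -0.92 against -1.01 its fold change hardly moved. On day 1 the same covariate put Relb past the threshold (log2 fold change 0.86, adjusted p = 0.00131) and left Icam1 short of it (log2 fold change 0.63, adjusted p = 0.0640). The part of the split in these results was not tested further.

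**Figure D2:**
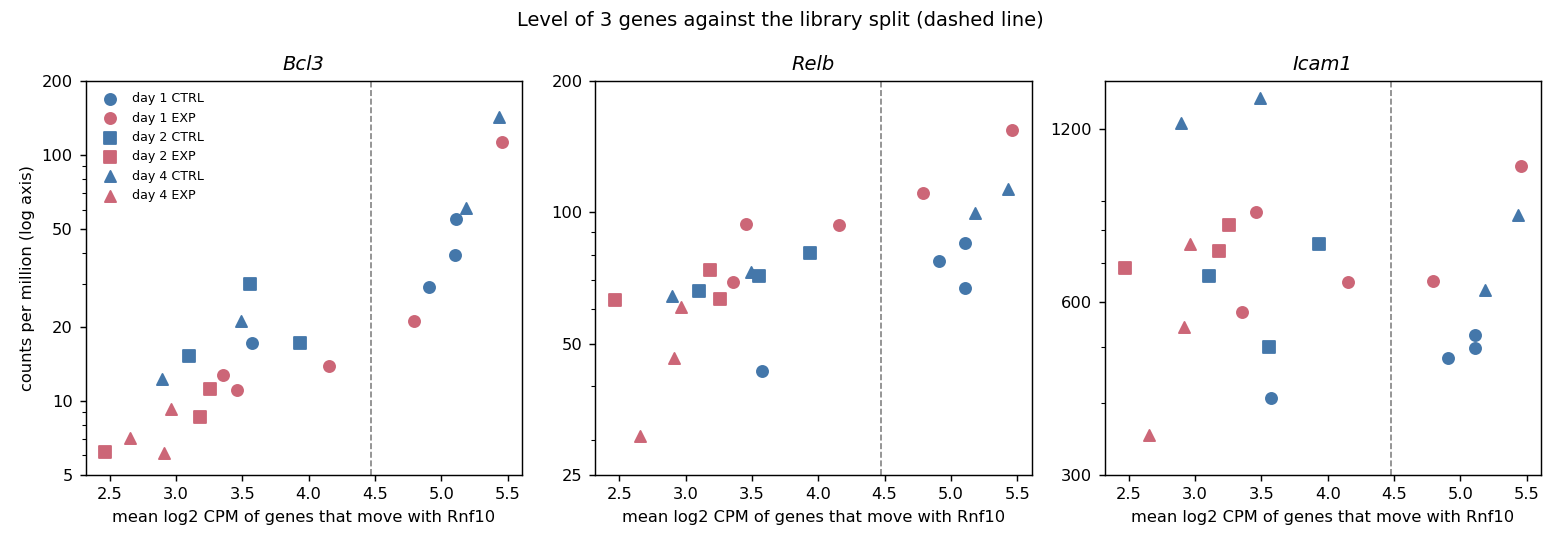
CPM (log axis) of Bcl3, Relb and Icam1 against the mean log2 CPM of the 191 genes that move with Rnf10, in each of the 22 libraries, with day as the marker shape and arm as the colour. The dashed line marks the gap between the 15 libraries on the low side and the 7 on the high side. Bcl3 and Relb climb with the x axis, and Icam1 does not.

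Icam1, the adhesion molecule that binds leukocyte β2 integrins, was higher in EXP on day 1 and lower on day 4. On day 1 the CTRL libraries held 498, 526, 479 and 407 CPM and the EXP libraries 1032, 653, 649, 577 and 860.4 CPM. Every EXP library was above every CTRL library, with EXP replicates 1 and 5 the highest. The level was 1.58-fold higher in EXP (log2 fold change 0.66, SE 0.24, adjusted p = 0.0408, edgeR). The call lay close to the threshold and was lost without CTRL replicates 1 (adjusted p = 0.0708), 2 (0.0580), 3 (0.0795) or 4 (0.105) or EXP replicates 1 (0.110) or 5 (0.0712), at log2 fold changes of 0.52 to 0.71, and on the high side of the split (0.77, adjusted p = 0.0632). On day 2 the CTRL libraries held 757, 500.2 and 665 CPM and the EXP libraries 686, 815 and 736 CPM, with overlap (log2 fold change 0.22, SE 0.28, adjusted p = 0.666). On day 4 the CTRL libraries held 1229, 1358, 629 and 849 CPM and the EXP libraries 351, 543 and 756 CPM. CTRL replicate 3 lay within the EXP range, and the level was 1.85-fold lower in EXP (log2 fold change -0.89, SE 0.27, adjusted p = 0.0242). That call was lost without CTRL replicates 1 (adjusted p = 0.0575) or 2 (0.0703) or EXP replicates 1 (0.126) or 2 (0.0781).

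Vcam1, the counter-receptor of the integrin VLA-4, was not called on any day. Its CTRL libraries held 247, 343, 419 and 291 CPM on day 1, 353, 176 and 422 CPM on day 2, and 695, 734, 564 and 607 CPM on day 4. Its EXP libraries held 264, 472, 255, 275 and 479 CPM on day 1, 219, 615 and 345 CPM on day 2, and 283, 703 and 694 CPM on day 4. The arms overlapped on each day, and the log2 fold change was 0.10 on day 1 (SE 0.32, adjusted p = 0.838), 0.31 the day after (SE 0.38, adjusted p = 0.652) and -0.21 at the last time point (SE 0.36, adjusted p = 0.708). The spread within groups was wide, and on day 4 EXP replicate 1 stood well below the other 2 EXP libraries.

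Both adhesion genes are also known from endothelial cells and leukocytes, so the markers of those cells stand beside them here. In bulk RNA, fewer cells of a type and less RNA per cell cannot be told apart. The summed level of the 11 endothelial markers was 8.56 to 10.3 CPM in CTRL and 1.56 to 36.4 CPM in EXP on day 1, 0.606 to 0.826 CPM and 4.40 to 10.5 CPM on day 2, and 6.11 to 13.5 CPM in CTRL and 31.7 to 101 CPM in EXP on day 4. Cdh5, a defining endothelial gene, was at 0 in 10 of the 22 libraries and at most 0.597 CPM, and the highest single values of that list were 45.4 CPM for Tek and 32.3 CPM for Sele. The endothelial sum was thus higher in EXP, with no overlap, on days 2 and 4. Of the 10 endothelial markers tested, 2 were called higher on day 2 and 4 on day 4, and 0 were called lower on either day. Summed over the 13 haematopoietic markers, the CTRL libraries of day 1 held 44.9 to 94.1 CPM and the EXP libraries 39.1 to 56.9 CPM. Day 2 had sums of 121 to 172 CPM in CTRL and 67.2 to 98.4 CPM in EXP, with no overlap. Day 4 had 111 to 155 CPM and 73.3 to 148 CPM. Of the 8 haematopoietic markers tested, 2 were called higher and 1 lower on day 2, with a median log2 fold change of 0.60. The called markers therefore did not all follow the lower sum. Ptprc was at 0 in 16 of the 22 libraries, and Csf1r reached 161 CPM. The 6 adipocyte markers summed to 0.253 to 3.099 CPM in CTRL and 8.09 to 88.5 CPM in EXP on day 2, and to 0.548 to 2.22 CPM in CTRL and 43.3 to 512 CPM in EXP on day 4. The part of these cells in the levels of the 10 genes was not tested.

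A difference of the EXP effect between days was called for 5 of the 10 genes, where 8.64% of all genes passed it. They were Nfkb2 (adjusted p = 0.00996), Icam1 (0.0243), Nfkb1 (0.0245), Relb (0.0256) and Nfkbia (0.0398), from edgeR's quasi-likelihood F-test. For each of these 5 the effect was lower on day 4 than on day 1, a contrast that called 4.56% of all genes in that direction. The difference of the log2 fold changes, day 4 minus day 1, was -1.55 for Relb (SE 0.36, adjusted p = 0.00911), -1.55 for Icam1 (SE 0.36, adjusted p = 0.00903) and -1.54 for Nfkb1 (SE 0.39, adjusted p = 0.0132). It was -1.26 for Nfkb2 (SE 0.26, adjusted p = 0.00418) and -0.86 for Nfkbia (SE 0.26, adjusted p = 0.0307). Between day 1 and day 2, and between day 2 and day 4, 0 of the 10 effects differed at an adjusted p under 0.05, with 3 and 2 of them at an unadjusted p under 0.05. Of all genes tested, 3.03% passed from day 1 to day 2 and 0% from day 2 to day 4. The joint call of Nfkb2 was kept without any single library. That of Nfkb1 was lost without CTRL replicate 2 (adjusted p = 0.0560) or 3 (0.0517) of day 1. That of Relb was lost without CTRL replicate 4 (0.0529), EXP replicate 1 (0.0515) or EXP replicate 2 (0.0571) of day 4, and that of Icam1 without CTRL replicate 2 (0.0542), EXP replicate 1 (0.0552) or EXP replicate 2 (0.0614) of day 4. The joint call of Nfkbia lay nearest the threshold and did not survive the removal of any of 14 of the 22 libraries (adjusted p up to 0.0903). With the replicate number as a block in the edgeR fit, only the joint call of Relb was kept (adjusted p = 0.0191). Those of Nfkb2 (0.0717), Nfkb1 (0.0740), Icam1 (0.132) and Nfkbia (0.151) were lost in that fit.

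**Figure D3:**
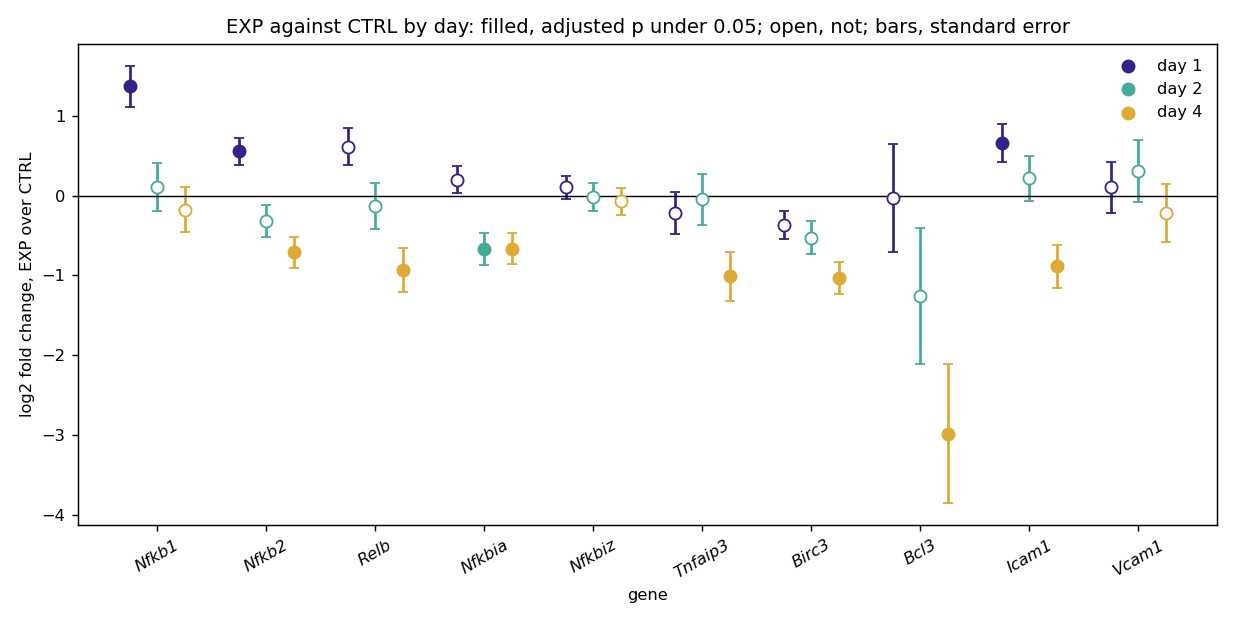
Log2 fold change, EXP over CTRL, of the 10 genes on days 1, 2 and 4, with bars for the standard error. Filled points have an adjusted p under 0.05 (edgeR) and open points do not. Nfkb1, Nfkb2 and Icam1 are filled above 0 on day 1, Nfkbia is filled below 0 on day 2, and 7 genes are filled below 0 on day 4.

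The levels were also compared over days within each arm, where days of sample handling cannot be told apart from time. Within EXP, Relb changed over the days (adjusted p = 0.0107, edgeR), with group means of 104 ± 31.6 CPM (SD, n = 5), 66.6 ± 6.07 CPM (SD, n = 3) and 45.9 ± 15.0 CPM (SD, n = 3) on days 1, 2 and 4. It was the only one of the 10 called, where 14.1% of all genes were. Within CTRL 0 of the 10 passed, where 0.302% of all genes did, and 5 had an unadjusted p under 0.05 (Nfkb1, Nfkb2, Nfkbia, Icam1 and Vcam1). By limma voom 4 of the 10 passed within CTRL, and by DESeq2 2. The CTRL means of Icam1 were 478 ± 50.6 CPM (SD, n = 4), 641 ± 130.1 CPM (SD, n = 3) and 1016 ± 337 CPM (SD, n = 4) on days 1, 2 and 4, with an adjusted p of 0.0905. Those of Nfkb2 were 116 ± 24.1 CPM (SD, n = 4), 175 ± 10.6 CPM (SD, n = 3) and 194 ± 17.5 CPM (SD, n = 4), with an adjusted p of 0.111. For these 2 genes the CTRL means are ordered upward over the days, while the EXP mean was highest on day 1 and lowest on day 4.

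The rest of the pathway was described with lists of its parts, given as counts beside the shares of all genes above. Of the 5 other subunit and IkB genes tested, 1 was higher in EXP on day 1, 0 were called on day 2 and 3 were lower on day 4, with a list median of -0.83 on day 4. Rel, the c-Rel subunit, was lower on day 4 (log2 fold change -1.04, SE 0.19, adjusted p = 0.00140), as was Nfkbie, which encodes the inhibitor IkBε (-1.25, SE 0.34, adjusted p = 0.0140). Nfkbib, the inhibitor IkBβ, had 0.72 (SE 0.15, adjusted p = 9.78e-04) on day 1. Of 25 IkB kinase and adaptor genes, 5 were higher and 4 lower on day 1, 0 higher and 2 lower on day 2, and 3 higher and 8 lower on day 4. Ripk1, the kinase of the tumour necrosis factor receptor complex, was lower on both of the later days, by a log2 fold change of -1.47 on day 2 (SE 0.34, adjusted p = 0.00728) and then -1.56 on day 4 (SE 0.33, adjusted p = 0.00290). Map3k14, the kinase that drives the alternative branch, was lower on day 2 (-1.12, SE 0.36, adjusted p = 0.0412), and Ikbke, an IkB-kinase-related kinase, was higher on day 4 (1.39, SE 0.27, adjusted p = 0.00182). Of 17 tested genes for ubiquitin editing and other feedback, 3 were higher and 2 lower on day 1, 1 higher and 0 lower on day 2, and 0 higher and 3 lower on day 4. The stress-response gene Ier3 was higher by a log2 fold change of 1.51 on day 1 (SE 0.22, adjusted p = 6.30e-05) and by 0.97 the day after (SE 0.26, adjusted p = 0.0176), and Birc2, the paralogue of Birc3, was lower on day 4 (-0.90, SE 0.25, adjusted p = 0.0140).

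Receptors, ligands and target genes were counted in the same way. Of 16 tested receptor genes, 6 were higher and 3 lower on day 1, 3 higher and 0 lower on day 2, and 3 higher and 3 lower on day 4. Il1rl1, the receptor for interleukin-33, had mean levels of 16.1 CPM in CTRL and 846 CPM in EXP on day 4 (log2 fold change 5.71, SE 0.72, adjusted p = 1.26e-04). Of 6 tested ligand genes, 2, 2 and 3 were higher on the 3 days and 0 were lower. Il33, its ligand, had means of 27.7 and 500.0 CPM in CTRL and EXP on day 1, 7.77 and 403 CPM on day 2, and 17.7 and 596 CPM on day 4. Of 28 other known NF-kB targets tested, 13 were higher and 5 lower on day 1, 14 higher and 2 lower on day 2, and 14 higher and 3 lower on day 4, with list medians of 1.03, 1.65 and 1.24. The chemokine gene Cxcl1 had means of 597 CPM in CTRL and 6167 CPM in EXP on day 4 (log2 fold change 3.37, SE 0.39, adjusted p = 6.85e-05). Sod2, the mitochondrial superoxide dismutase, had a log2 fold change of 1.68 on day 1 (SE 0.19, adjusted p = 5.94e-06). Of 19 other adhesion genes tested, 1 was higher and 3 lower on day 1, 3 higher and 0 lower on day 2, and 4 higher and 1 lower on day 4. Cd44, the hyaluronan receptor, was higher in EXP on day 1 (log2 fold change 1.37), day 2 (1.12) and day 4 (0.84), with adjusted p-values of 1.77e-05, 0.00150 and 0.00468. On day 4, then, 7 of the 10 genes were lower while 14 of 28 other targets were higher; the lists are small and were chosen by hand, and no test of one list against another was made.

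**Figure D4:**
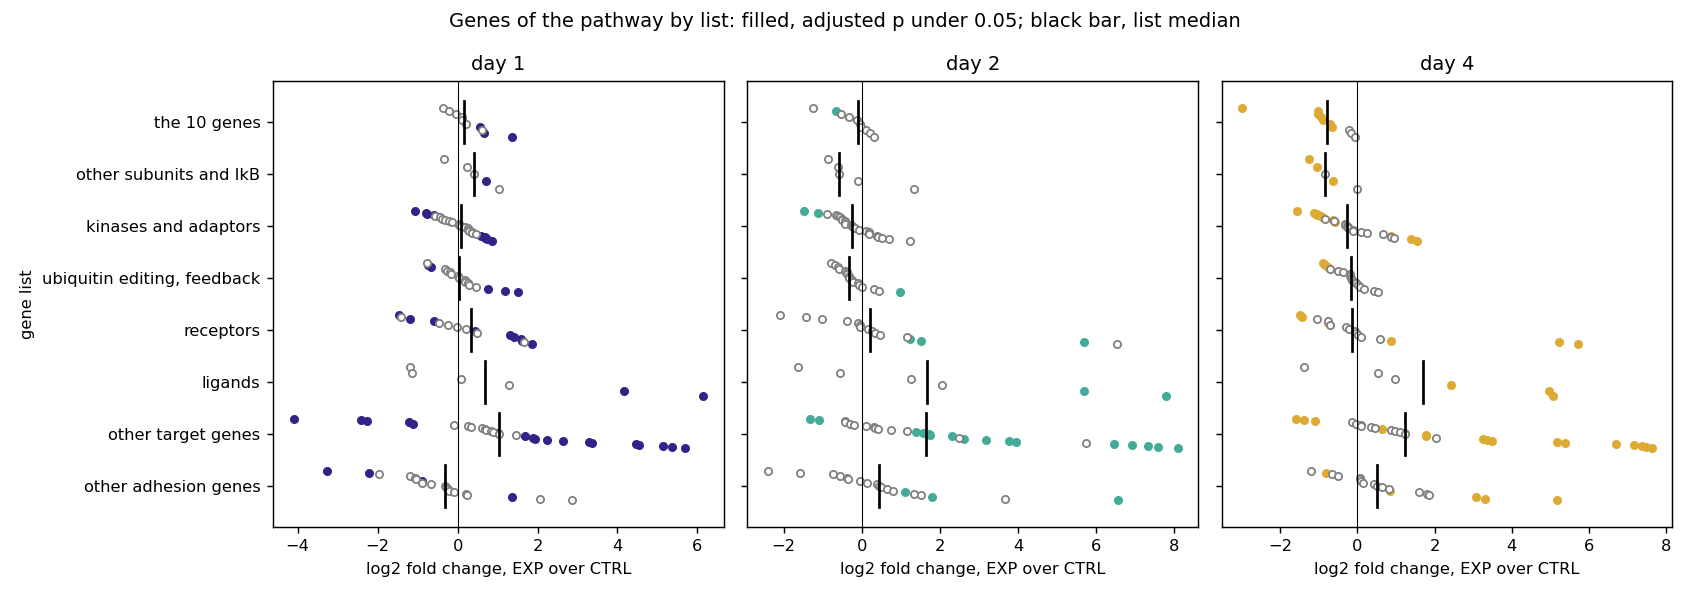
Log2 fold change, EXP over CTRL, of every tested gene of the 10 and of 7 lists of the pathway, on days 1, 2 and 4. Points are genes, filled where the adjusted p is under 0.05 (edgeR), and black bars are list medians. On day 4 the median of the 10 genes is -0.80 and that of the other targets 1.24.

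Across the 22 libraries the 45 pairs among the 10 genes had Pearson correlations of log2 CPM from -0.24 to 0.74, with a median of 0.37, given as a description of libraries that share groups and depth. The highest were between Nfkb2 and Icam1 (0.74), Nfkb2 and Nfkbia (0.73) and Nfkb2 and Relb (0.71), and the lowest was between Nfkbiz and Bcl3 (-0.24). After the group means were taken out, those 3 highest pairs had 0.53, 0.50 and 0.68. The highest pair was then Relb and Bcl3 (0.76), the lowest Relb and Nfkbiz (-0.37), and the median was 0.33. Of all genes with enough counts, the 2 whose log2 CPM followed each of the 10 most closely were then looked up. For Bcl3 they were Foxj2 and Ccnl1 (both 0.96), for Birc3 Gm7019 (0.96) and Nceh1 (0.92), and for Relb Kazn (0.93) and Atxn2l (0.91). For Nfkb2 they were Zfp830 (0.90) and Ist1 (0.86), for Tnfaip3 Fndc3a (0.90) and Gpkow (0.83), and for Nfkbia Zhx2 (0.89) and Bcl10 (0.87), an adaptor of the pathway. For Nfkb1 they were Ptpn23 (0.88) and Med13 (0.87), and for Icam1 Gabpb1 (0.87) and Eif1a (0.86). The lowest were those of Vcam1, Insig2 (0.80) and Glce (0.72), and of Nfkbiz, Vti1a (0.76) and Tbc1d24 (0.74). After the group means were taken out, Bcl3 had 0.96 with Foxj2 and 0.95 with Ccnl1, and Relb 0.91 with Kazn and 0.89 with Atxn2l. Bcl3 and Relb also moved with the library split (0.89 and 0.83), and its part in their correlations with these genes was not tested.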

How the data were processed

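RNA of sorted fibroblasts was measured in 22 libraries. The authors deposited 1 table of raw counts per gene with Ensembl identifiers. Trimmomatic and mm39 are named per the submitters' processing notes, and the aligner, counter, annotation and strandedness are not given in the sources used here. Symbols came from GENCODE M21, which named 52081 of 55414 identifiers. No coordinates on mm39 are given, since M21 uses another build. Those printed with the start-site sequences are on GRCm38.p6. The deposited counts were fitted in R 4.3.3 with edgeR 4.0.16: TMM, filterByExpr (minimum count 10), robust quasi-likelihood, a mean for each of the 6 groups over all libraries (16 residual degrees of freedom), and Benjamini-Hochberg over 17554 genes at 0.05. Tests were two-sided, and standard errors follow from the fold change and the F statistic. Log2 CPM used a prior count of 2. The script was tested on simulated data. The smallest detectable level, 3 counts, was 0.0800 to 0.155 CPM, which covers counting error only. Chi-square per degree of freedom was 26.7 to 403 between replicate pairs, so none was treated as 1 library.

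The 10 genes, the lists and the tests were chosen with earlier results of these data known. The 10 genes are named with all values, and from each list and day at most the 2 called genes with the smallest p are named. The most alike genes are the 2 with the highest Pearson correlation among genes averaging at least 5 CPM. Alternatives were DESeq2 1.42.0 size factors or test, library totals, limma 3.58.1 voom, no filter, each day alone, a replicate block, the library split, and leaving out each library. Figures were drawn with matplotlib. Marker lists covered fibroblasts, endothelium, blood cells, keratinocytes, melanocytes with mast cells, pericytes with smooth muscle, adipocytes, skeletal muscle and Schwann cells.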

Additional observations from a re-analysis of the deposited data

Results flagged for a closer look

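In the EXP group of day 1, the highest library stood apart from the other 4 by Dixon's criterion for 4 of the 10 genes. Replicate 3 held 298 CPM of Nfkb1, replicate 5 held 1739 CPM of Nfkbia, replicate 1 held 311 CPM of Birc3, and replicate 1 held 113 CPM of Bcl3. Chance flags about 1 group in 20, which is 1.5 of the 30 groups of 4 or 5 libraries examined. The EXP effect differed between days for Nfkb2 (adjusted p = 0.00996), Icam1 (0.0243), Nfkb1 (0.0245), Relb (0.0256) and Nfkbia (0.0398), by edgeR's quasi-likelihood F-test of the difference itself.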

How the results depend on the processing

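Scaling to library totals without TMM turned the split of all calls from 2392 higher and 2611 lower to 3397 and 1732 on day 1, from 1378 and 987 to 4191 and 441 on day 2, and from 2390 and 1572 to 4271 and 1018 on day 4. On library totals, 1 of the 10 genes was called higher and 0 lower on day 2 (main values 0 and 1). The genes called lower on day 2 numbered 3 when that day was fitted alone (Nfkbia, Birc3 and Bcl3) and 2 by limma voom (Nfkbia and Birc3). Limma voom called 1 lower on day 1 (Birc3, main value 0) and 5 on day 4, without Relb and Bcl3. Of the 7 lower on day 4, 1 was called when that day was fitted alone (Birc3), 5 on library totals, 6 with no filter, 4 with the split as a covariate and 0 on its low side. Within EXP over days DESeq2 called 2 (main value 1), and within CTRL it called 2 and voom 4 (main value 0). Same-numbered libraries of a day correlated at -0.067 to 0.164 in their deviations over 10 pairs, and on day 4 at 0.079, 0.147 and 0.110. Of 20 libraries, 9 correlated best with their own number, out of 3 to 5 libraries of the other arm. The number expected by chance was not computed, so these values do not settle whether the numbers are pairs. The main fit did not take them as pairs, and a replicate block was fitted as an alternative. With the replicate block Icam1 (adjusted p = 0.162) and Nfkb2 (0.0602) were lost and Relb (0.00923) gained on day 1, Nfkbia (0.0674) and Icam1 (0.0752) were lost on day 4, where 5 were lower, 0 were lower on day 2, the effect differed between days for 1 (main value 5), 2 changed within EXP, and over all genes the calls went from 5003 to 4349 on day 1, from 2365 to 2213 on day 2, from 3962 to 2780 on day 4, from 1517 to 392 for the difference between days, from 2478 to 1376 within EXP and from 53 to 0 within CTRL. Leaving out each library in turn gave 1 to 4 genes higher on day 1, 0 to 2 lower on day 2, 1 to 7 lower on day 4, 3 to 6 whose effect differed between days, 1 to 2 changing within EXP and 0 to 1 within CTRL.

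The log2 fold changes that turned sign were of genes not called in that comparison. On library totals these were Bcl3 on day 1 (0.15), Nfkb2 (0.14), Relb (0.34), Nfkbiz (0.46) and Tnfaip3 (0.44) on day 2, and Nfkb1 (0.11), Nfkbiz (0.25) and Vcam1 (0.0091) on day 4. Bcl3 on day 1 was 0.28 with the split as a covariate and 0.71 on its high side. With the replicate block Vcam1 on day 1 was -0.060 and Tnfaip3 on day 2 9.9e-05, and by voom Nfkb1 on day 2 was -0.028. Leaving out 1 library moved Bcl3 between -1.25 and 0.27 and Vcam1 between -0.030 and 0.25 on day 1, Nfkb1 between -0.20 and 0.30, Nfkbiz between -0.074 and 0.032, Tnfaip3 between -0.27 and 0.13 and Vcam1 between -0.17 and 0.60 on day 2, and Vcam1 between -0.41 and 0.075 on day 4. The causes were not tested. Depth was no limit for these 10 genes, all far above 3 counts.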

Other observations

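The remaining marker lists were also read, since the sort does not gate on all of these cells. The 6 fibroblast markers summed to 138660 to 191456 CPM in CTRL and 75053 to 113460 CPM in EXP on day 1, to 233438 to 292715 CPM and 48061 to 120879 CPM on day 2, and to 184468 to 248183 CPM and 40443 to 188523 CPM on day 4, so that the arms were apart on days 1 and 2 and overlapped on day 4. The 7 pericyte and smooth muscle markers summed to 49.7 to 91.6 CPM in CTRL and 20.1 to 44.1 CPM in EXP on day 1 and to 86.9 to 97.9 CPM and 29.0 to 52.8 CPM on day 2, with no overlap, and to 56.4 to 122 CPM and 24.7 to 67.6 CPM on day 4. The 9 keratinocyte markers summed on day 4 to 10.97 to 26.8 CPM in CTRL and 3.71 to 21.4 CPM in EXP, and the 8 melanocyte and mast cell markers to 5.18 to 18.8 CPM and 2.05 to 24.1 CPM. The 5 skeletal muscle markers then summed to 0.926 to 2.07 CPM in CTRL and 0.838 to 3.17 CPM in EXP. The 4 Schwann cell markers summed to 9.57 to 14.9 CPM and 7.78 to 14.8 CPM. For these lists, from keratinocytes to Schwann cells, the arms overlapped on days 1 and 4. Day 2 had keratinocyte sums of 10.005 to 39.9 CPM in CTRL and 5.59 to 6.90 CPM in EXP. Melanocyte and mast cell sums of day 2 were 5.95 to 14.4 CPM and 15.2 to 37.4 CPM. Those of skeletal muscle were 0.910 to 2.07 CPM and 0.197 to 0.476 CPM. The arms were thus apart on day 2 for these lists except Schwann cells. By edgeR's quasi-likelihood F-test, 3, 4 and 2 of 6 fibroblast markers were lower and 1 higher in EXP on days 1, 2 and 4. On day 4, 5 of 5 tested adipocyte markers were higher.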
